A study of Mus musculus with 16 samples.

Results

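The adult globin genes of the mouse, which encode the alpha and beta chains of hemoglobin, were followed through the libraries of erythroid progenitors. They were chosen by symbol. Of 5 genes on the list, 4 were analysed, the alpha copies *Hba-a1* and *Hba-a2* and the beta copies *Hbb-bs* and *Hbb-bt*, among 15386 genes of the RNA-seq table and 13490 of the m6A table. The other listed gene was not analysed here.

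CFU-E cells, the progenitors that precede proerythroblasts, were sorted from bone marrow of C57BL/6 mice of both sexes aged 10 to 16 weeks, as live cells that lacked lineage markers (Ter119 included), CD16/32, CD41, CD34 and Sca1 and carried Kit and CD71. RNA-seq was performed on 3 control libraries and on 3 libraries that the labels call *Mettl3*-deficient, from the CFU-E cells with low Kit (CFU-E Kit-lo, below the Kit-lo-labelled libraries). Deletion was driven by *EpoR-tdTomato-Cre* on *Mettl3* fl/fl alleles (*Mettl3* fl/fl *EpoR* Cre/-). This Cre is active in erythroid cells and in macrophages of the erythroblastic island. The labels call the other group only "Control", and control cells of low Kit were not analysed here, so genotype and Kit level cannot be told apart. In a second experiment m6A-modified RNA of control CFU-E cells was immunoprecipitated (IP, 2 libraries) and set beside input libraries (2). Nothing in the labels says that replicates were separate mice, so p-values measure only the spread between these libraries.

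Total counts were 21329242, 17429262 and 18163121 in control CFU-E and 18698840, 19987964 and 19313314 in the Kit-lo-labelled libraries. They were 23160909 and 19421059 in m6A input and 37142742 and 20085663 in IP. Levels are given as counts per 1000000 counts of the library (CPM). *Mettl3*, the targeted gene, was at 113, 124 and 125 CPM in control and 120, 130 and 107 CPM in the Kit-lo-labelled libraries (log2 fold change -0.068, SE 0.096, adjusted p = 0.63 by edgeR). The groups overlapped, and the counts do not show which exons the reads came from, so every direction below rests on the labels of the libraries. *Kit* was at 533, 631 and 598 CPM in control and at 70.5, 54.7 and 43.6 CPM in the Kit-lo-labelled libraries, as the gate implies. *Tfrc*, which encodes CD71, was at 665 ± 39.3 CPM (SD, n = 3) and 629 ± 26.9 CPM (SD, n = 3).

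Hemoglobin is a tetramer of alpha and beta chains, each holding a heme. The chains come from separate gene clusters on different chromosomes and are made in near balance, since free alpha chains are unstable and toxic to the red cell. Adult globin genes are switched on late in erythroid development by GATA1, KLF1 and partner factors acting through a distant enhancer at each cluster, and their mRNAs come to dominate the transcriptome of the maturing erythroblast. METTL3 is the catalytic subunit of the enzyme that writes m6A, a methyl mark on adenosines of mRNA.

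In GRCm38 *Hba-a1* lies at chr11:32283511-32284465 and *Hba-a2* at chr11:32296489-32297298, both on the plus strand. *Hbb-bs* lies at chr7:103826534-103828096 and *Hbb-bt* at chr7:103812524-103813996, both on the minus strand. Each has 3 exons and overlaps 0 other annotated genes. The coding sequences of *Hba-a1* and *Hba-a2* (426 bases each) differ at 1 base, C381T counted from the first base of the start codon, the third base of codon 127. Those of *Hbb-bs* and *Hbb-bt* (441 bases each) also differ at 1 base, C417T, the third base of codon 139. The 41 coding bases around each difference, all exonic, are shown because they carry the whole coding distinction between copies. The capital marks the base that differs.
Hba-a1, chr11:32284323-32284363, plus strand: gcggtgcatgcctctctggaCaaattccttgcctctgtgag
Hba-a2, chr11:32297140-32297180, plus strand: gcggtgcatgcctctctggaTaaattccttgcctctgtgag
Hbb-bs, chr7:103826672-103826712, minus strand: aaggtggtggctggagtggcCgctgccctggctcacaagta
Hbb-bt, chr7:103812663-103812703, minus strand: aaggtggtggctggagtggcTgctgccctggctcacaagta

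The copies of a pair are therefore hard to separate by reads. The counts were estimated by kallisto, which compares reads with transcripts in words of 31 bases by default. Of the 31-base words of the annotated transcript, 191 of 669 (28.6%) in *Hba-a1* and 47 of 524 (8.97%) in *Hba-a2* occur in no other gene, against 198 of 598 (33.1%) in *Hbb-bs* and 273 of 673 (40.6%) in *Hbb-bt*. In *Hba-a1*, 161 of those words reach into the bases before the coding sequence. The sum of the copies is therefore the main value, and single copies are uncertain. Alpha and beta coding sequences are far apart, with 54.9% to 55.1% identity.

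Alpha globin mRNA rose in the Kit-lo-labelled libraries. The sum of *Hba-a1* and *Hba-a2* was at 60.9, 57.7 and 62.3 CPM in control CFU-E and at 1892, 3108 and 2207 CPM in the Kit-lo-labelled libraries. Every Kit-lo-labelled library was far above every control, and replicate 2 was the highest. The mean was 60.3 ± 2.37 CPM (SD, n = 3) in control and 2402 ± 632 CPM (SD, n = 3) with low Kit, a 38.4-fold difference (log2 fold change 5.26, SE 0.18, adjusted p = 1.8e-07 by edgeR). These values rest on 1005 to 1299 counts per control library and 35369 to 62129 counts per Kit-lo-labelled library.

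Beta globin mRNA rose as well, from a lower start. The sum of *Hbb-bs* and *Hbb-bt* was at 5.02, 5.34 and 5.56 CPM in control CFU-E and at 407, 802 and 551 CPM in the Kit-lo-labelled libraries. The order of the Kit-lo-labelled libraries was that of alpha globin, with replicate 2 highest and replicate 1 lowest, and the groups did not overlap. The mean was 5.30 ± 0.273 CPM (SD, n = 3) in control and 586 ± 200 CPM (SD, n = 3) with low Kit, a 107-fold difference (log2 fold change 6.74, SE 0.26, adjusted p = 2.3e-07 by edgeR). Control libraries held 93 to 107 counts of beta globin.

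All 4 copies were called higher, at a fold of at least 1.5 and an adjusted p under 0.05, and the groups overlapped in 0 of them. Of 11977 rows tested, 12.1% were called higher and 26% had every Kit-lo-labelled library above every control. In order of log2 fold change the beta sum stood at place 12 and the alpha sum at place 23 of 11977, and the median over all rows was 0.0080. In bulk libraries a change in the share of globin-expressing cells and a change in globin RNA per cell cannot be told apart.

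Single copies followed their sums. *Hba-a1* was at 30.8, 28.7 and 36.3 CPM in control and at 842, 1308 and 1014 CPM in the Kit-lo-labelled libraries. *Hba-a2* was at 30.1, 28.9 and 26.0 CPM and at 1050, 1800 and 1193 CPM. *Hba-a2* was above *Hba-a1* in each Kit-lo-labelled library, whereas in control either copy could be the higher, with *Hba-a1* ahead in replicates 1 and 3. *Hbb-bs* was at 3.0, 4.36 and 4.24 CPM in control and at 311, 640 and 417 CPM in the Kit-lo-labelled libraries. *Hbb-bt* was at 2.02, 0.975 and 1.32 CPM, from 43, 17 and 24 counts, and at 95.2, 161 and 134 CPM. *Hbb-bs* exceeded *Hbb-bt* in every library. For each copy the control libraries were all below the Kit-lo-labelled libraries, among which replicate 1 was the lowest and replicate 2 the highest.

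**Figure D1:**
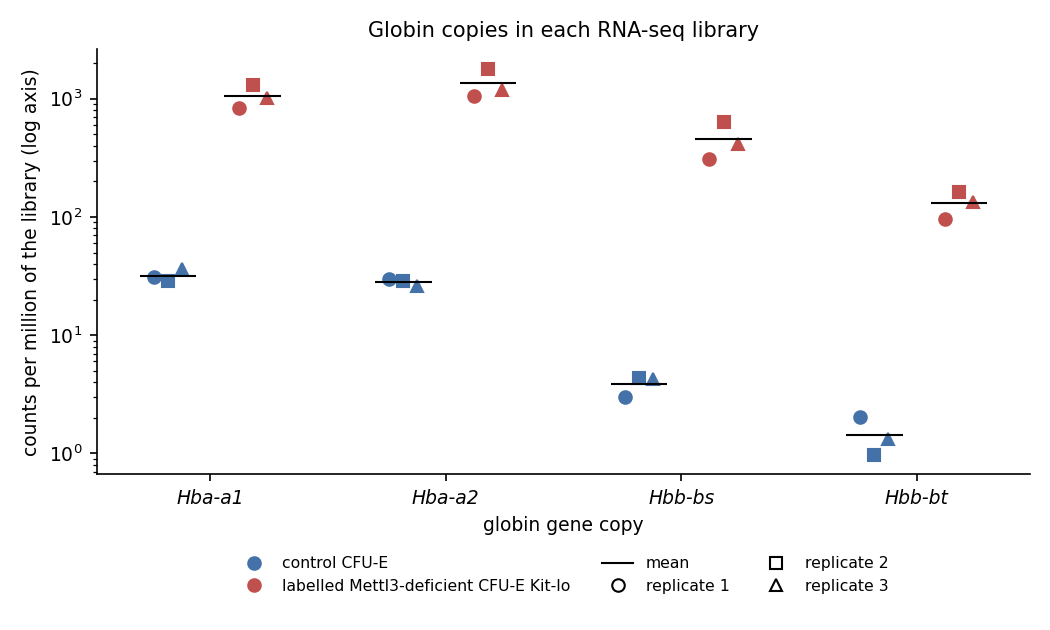
CPM of each globin copy (log axis) in the 3 control CFU-E libraries (blue) and the 3 Kit-lo-labelled libraries (red); symbols give the replicate number and bars the mean. Every red point lies above every blue point of the same copy, and replicate 2 is the highest red point for all 4 copies.

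The globins varied more among the Kit-lo-labelled libraries than among the controls. The coefficient of variation of the alpha sum was 3.93% in control and 26.3% in the Kit-lo-labelled libraries, and that of the beta sum 5.15% and 34.1%. The highest Kit-lo-labelled library was 1.64 times the lowest for alpha and 1.97 times for beta globin. For *Hbb-bt* alone the order was the other way, with 36.9% in control, where its counts were few, and 25.4%.

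The globins stood nearer the top of the 15386 genes in the Kit-lo-labelled libraries than in control. Ordered by counts within each library, the alpha sum stood at place 3517, 3685 and 3410 in control and at 30, 18 and 27 in the Kit-lo-labelled libraries. The beta sum stood at 8597, 8614 and 8401 and at 399, 131 and 239. All globin counts together made 0.00656% ± 0.000243 (SD, n = 3) of control counts and 0.299% ± 0.083 (SD, n = 3) of counts in the Kit-lo-labelled libraries, a small share in both groups.

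Levels were compared between copies per kb of annotated transcript (CPM per kb). In control CFU-E the order was *Hba-a2* at 51.1 ± 3.79, *Hba-a1* at 45.7 ± 5.56, *Hbb-bs* at 6.16 ± 1.20 and *Hbb-bt* at 2.04 ± 0.754 CPM per kb (SD, n = 3 each). The alpha copies did not differ beyond their spread, and with RefSeq in place of GENCODE transcript lengths *Hba-a1* came first, at 57.2 ± 6.96 against 50.3 ± 3.73 CPM per kb. In the Kit-lo-labelled libraries the order was *Hba-a2* at 2433 ± 719, *Hba-a1* at 1509 ± 338, *Hbb-bs* at 726 ± 268 and *Hbb-bt* at 185 ± 47.1 CPM per kb (SD, n = 3 each). With these lengths *Hba-a2* was above *Hba-a1* in every pair of Kit-lo-labelled libraries, by little at the edge (lowest 1895 against highest 1872 CPM per kb), and with RefSeq lengths the ranges overlapped (1865 to 3197 against 1506 to 2340 CPM per kb). In both groups the beta copies were lower than the alpha copies in every library, and *Hbb-bt* was the lowest.

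The balance of alpha to beta globin mRNA differed between the groups. Per kb, alpha exceeded beta by 12.9, 11.2 and 11.4 times in the control libraries and by 4.91, 4.10 and 4.22 times in the Kit-lo-labelled libraries. Alpha was thus in excess in all 6 libraries, and the excess was smaller in each Kit-lo-labelled library than in any control. Mean ratios were 11.8 ± 0.899 (SD, n = 3) and 4.41 ± 0.437 (SD, n = 3). The mean log2 ratio differed by -1.43, a 2.69-fold lower ratio (two-sided exact permutation test p = 0.10, the smallest that 3 against 3 libraries allow). Replicate 2 had the most globin and the lowest ratio among the Kit-lo-labelled libraries, but the 6 libraries form 2 separate clusters and no correlation was computed.

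The split between near-identical copies was described in the same way. *Hba-a1* made 50.7%, 49.9% and 58.3% of alpha counts in control and 44.5%, 42.1% and 45.9% in the Kit-lo-labelled libraries. The ranges did not overlap, with means of 52.9% ± 4.64 (SD, n = 3) and 44.2% ± 1.95 (SD, n = 3), a difference of -8.75 percentage points (exact permutation p = 0.10, the smallest possible). *Hbb-bs* made 59.8%, 81.7% and 76.2% of beta counts in control and 76.6%, 79.9% and 75.7% in the Kit-lo-labelled libraries. These ranges overlapped (exact permutation p = 0.80), and control replicate 1 stood apart at the low end on 107 beta counts. How the counting divided shared reads could move either share, and this was not tested.

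**Figure D2:**
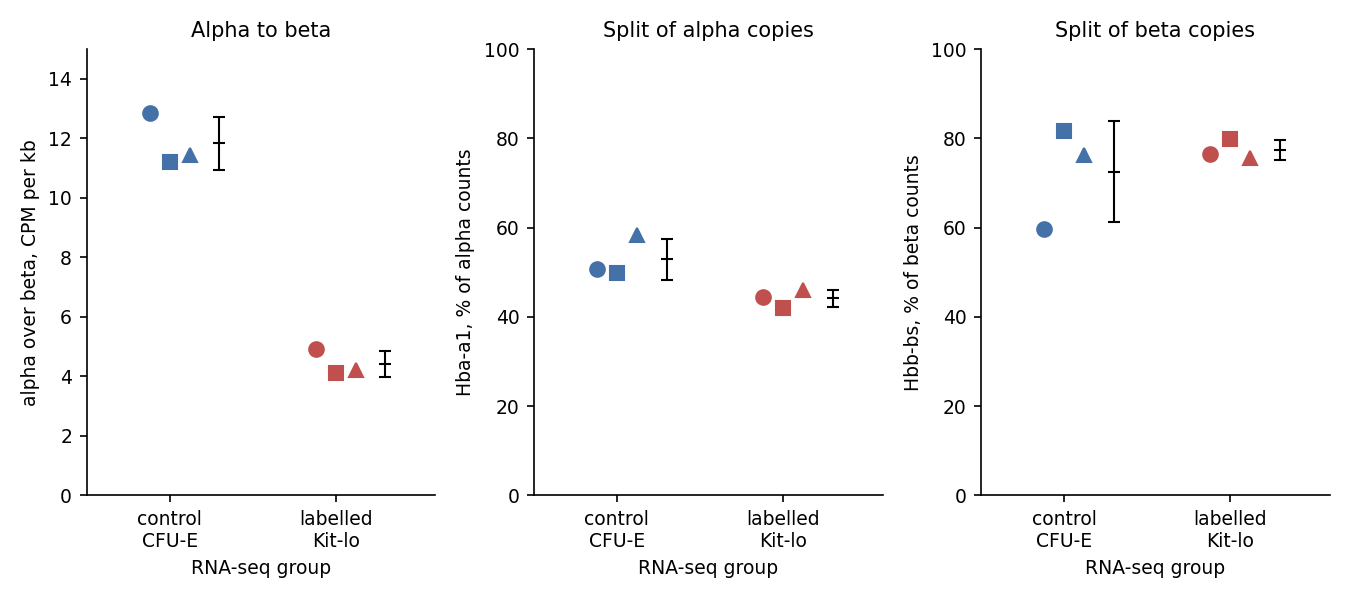
Alpha over beta globin (CPM per kb, left), the percent of alpha counts from Hba-a1 (middle) and the percent of beta counts from Hbb-bs (right) in each RNA-seq library; black marks give mean and SD of 3 libraries. The ratio and the Hba-a1 share are lower in every Kit-lo-labelled library than in any control, and the Hbb-bs shares overlap.

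The other globin genes were few in the RNA-seq table. Of 10 listed embryonic, theta-like and alternative beta genes, 2 had a row and 1 was tested. *Hbq1b*, a theta-like globin between the alpha copies (chr11:32286965-32287784, plus strand), had 1, 0 and 2 counts in control and 69, 107 and 75 counts in the Kit-lo-labelled libraries. It passed the filter on low counts only through the Kit-lo-labelled libraries, so its call (higher) is a description, and the ratio of summed counts per total was 82.1 (95% counting interval 27.8 to 401). *Hba-x*, the embryonic zeta chain at the 5′ end of the cluster, had 0, 0 and 1 counts and 3, 21 and 4 counts. It was too low to be tested, with a ratio of 27.5 (interval 4.54 to 1124), and 21 of its 28 counts came from replicate 2. An alpha globin pseudogene on chromosome 17, *Hba-ps4*, had 17, 3 and 12 counts in control and 1, 5 and 2 in the Kit-lo-labelled libraries, a ratio of 0.245 (interval 0.0977 to 0.544). It did not rise with the alpha genes, and it was singled out after its values were seen. These intervals cover counting error only.

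Genes next to the globins were examined because the clusters lie among other genes. Within 250 kb of *Hba-a1*, 7 genes other than the adult copies were tested, of which 1 was called higher (*Hbq1b*) and 1 lower (*Stk10*, a kinase, log2 fold change -1.95, SE 0.68, adjusted p = 0.049). *Hbq1b* was tested only because of the group in which it is high, as given above. Of all rows 12.1% were called higher and 9.84% lower. The median log2 fold change of the 7 genes was -0.063. The call of *Stk10* was lost when any control library or replicate 3 of the Kit-lo-labelled libraries was left out, and with library size as the only scaling. *Nprl3*, whose introns hold the distant alpha globin enhancer, was at 17.1 CPM on average in control and 17 CPM in the Kit-lo-labelled libraries (log2 fold change -0.063, SE 0.17, adjusted p = 0.81). *Snrnp25* and *Mpg*, on the same side of the cluster, had log2 fold changes of 0.52 and 0.47 and were below the fold of 1.5. Their adjusted p-values by edgeR were 0.0056 and 0.015. At an unadjusted p under 0.05 by edgeR, 3 of the 7 genes were higher, *Hbq1b* among them, and 2 lower. Of the 8 genes tested within 250 kb of *Hbb-bs*, nearly all olfactory receptor genes, 0 were called by edgeR, 0 by DESeq2, and 0 had an unadjusted p under 0.05.

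The starts of the globin genes were compared because all 4 copies moved together. Each promoter was taken as 250 bases before to 50 after the RefSeq start. The 130 bases before the start are shown for the more abundant alpha copy in the Kit-lo-labelled libraries and for both beta copies. Capitals mark CACCC, the letters known as the KLF1 box. They also mark CCAAT, known as the CCAAT box and read as ATTGG where it lies on the other strand. A further capital stretch in *Hbb-bt* marks TATAAA, and neighbouring matches on both strands of that gene run together.
Hba-a2, chr11:32296362-32296491, plus strand: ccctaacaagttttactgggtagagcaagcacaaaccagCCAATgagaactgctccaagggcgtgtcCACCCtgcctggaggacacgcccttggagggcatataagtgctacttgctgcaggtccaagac
Hbb-bs, chr7:103827929-103828058, minus strand: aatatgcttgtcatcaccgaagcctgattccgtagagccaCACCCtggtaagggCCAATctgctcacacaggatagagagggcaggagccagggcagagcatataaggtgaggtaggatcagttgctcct
Hbb-bt, chr7:103813924-103814053, minus strand: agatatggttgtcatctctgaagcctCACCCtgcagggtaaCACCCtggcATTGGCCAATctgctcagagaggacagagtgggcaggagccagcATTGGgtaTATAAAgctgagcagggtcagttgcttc

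The same window of *Hba-a1* is not printed, since it is that of *Hba-a2* shifted by the place of the annotated start, with 0 differences in the 127 bases they share. The windows of *Hbb-bs* and *Hbb-bt* differed at 33 of 130 aligned positions, so that the beta copies differ much more before the start than in the coding sequence. Both strands of the whole 300-base promoters were searched. CACCC was found in all 4 copies and in 57.5% of 32851 promoters. The CCAAT box was also in all 4 (37.4% of promoters). GATAA, the core letters bound by GATA factors, was in all 4 as well (25.4%), before the windows printed above. The longer CCACACCC, which contains CACCC, was found in *Hbb-bs* only among the 4 copies and in 3.56% of promoters. AGATAA, which contains GATAA, was likewise in *Hbb-bs* only (11.2% of promoters), and TATAAA in *Hbb-bt* only (13.6%). The printed windows of *Hba-a2* and *Hbb-bs* hold TATAAG near the same place, which differs from TATAAA in the last letter and was not searched. A match of letters is a description and not a bound site.

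The factors that act on globin genes were measured as mRNA. Of 20 listed regulators, all tested, 6 were called higher, 2 lower and 12 neither. Their median log2 fold change was 0.068, beside 0.0080 over all rows, and of all rows 12.1% were called higher, 9.84% lower and 22% in either direction. Among activators, *Klf1*, which binds the beta globin CACCC box, rose from 941 ± 52.6 to 1469 ± 52.2 CPM (SD, n = 3 each, log2 fold change 0.59, SE 0.075). This lay just past the fold of 1.5, and the call was lost under upper quartile scaling and without control replicate 3. Over the alternatives 5 to 7 regulators were called higher. The count was also 5 without control replicate 2 and without replicate 3 of the Kit-lo-labelled libraries. *Klf1* had the smallest log2 fold change of the regulators called higher. *Nfe2*, which acts at the globin enhancers, rose by 0.67 and *Zfpm1*, the GATA1 partner FOG1, by 1.46 on the log2 scale. *Gata1* itself was at 583 ± 6.75 and 637 ± 65.8 CPM (SD, n = 3 each, log2 fold change 0.075, adjusted p = 0.53). *Tal1*, *Lmo2* and *Ldb1*, of the complex that joins enhancer to promoter, were not called, at 0.58, 0.15 and -0.17 on the log2 scale. *Tal1* lay just below the fold of 1.5 (SE 0.16, adjusted p = 0.018 by edgeR).

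Among silencers of embryonic beta-like globin genes, *Bcl11a*, *Zbtb7a* and *Sox6* rose, with log2 fold changes of 0.94, 0.95 and 1.97. *Nr2c1*, *Nr2c2*, *Mbd2* and *Chd4*, also among the listed regulators, were not called, at -0.35, 0.061, -0.27 and -0.0098 on the log2 scale. *Bcl11a* was at 196, 190 and 191 CPM in control and at 378, 395 and 373 CPM in the Kit-lo-labelled libraries. The genes that fell were *Myb* (log2 fold change -2.83, SE 0.11) and *Gata2* (-3.93, SE 0.20), factors of early progenitors. *Gata2* was at 34.0 ± 2.07 CPM (SD, n = 3) in control and at 2.32 ± 0.508 CPM (SD, n = 3) in the Kit-lo-labelled libraries.

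Genes that supply heme were higher or not called. Of 13 tested, 6 were called higher and 0 lower by edgeR (median log2 fold change 0.48). Of all rows 12.1% were called higher and 9.84% lower, with a median of 0.0080. DESeq2 also called 6 and 0 of the heme genes, and at an unadjusted p under 0.05 the counts were 11 and 1. *Alas2*, the erythroid enzyme of the first step of heme synthesis, was at 1.92, 4.53 and 2.09 CPM in control and at 102, 199 and 117 CPM in the Kit-lo-labelled libraries (log2 fold change 5.58, SE 0.35). It was the only heme gene of the list whose change was as large as that of alpha globin, and like the globins it was highest in replicate 2. *Uros*, an enzyme of the same pathway, and the mitochondrial carriers *Slc25a38*, *Abcb10* and *Tmem14c* rose by 1.04, 0.76, 1.47 and 0.77 on the log2 scale. *Fech*, which inserts the iron, had a log2 fold change of 0.46, below the fold of 1.5, and *Alas1*, the ubiquitous isoenzyme, one of -0.31.

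Of 5 tested genes that handle free globin chains or adjust globin synthesis, 2 were called higher and 0 lower by edgeR and by DESeq2 (median 0.53, with 4 and 1 at an unadjusted p under 0.05), where 12.1% of all rows were called higher and 9.84% lower. *Ube2o*, a ubiquitin ligase that marks free alpha chains for degradation, was at 19.5, 23.6 and 18.9 CPM in control and at 64.4, 69.6 and 87.6 CPM in the Kit-lo-labelled libraries (log2 fold change 1.79, SE 0.16). *Eif2ak1*, the heme-regulated kinase that slows globin translation when heme is short, had a log2 fold change of 0.65 (SE 0.095). The count of genes called higher fell to 1 when control replicate 1 was left out. *Prdx2* (0.53), *Ulk1* (0.31) and *Hspa8* (-0.44) were below the fold of 1.5.

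**Figure D3:**
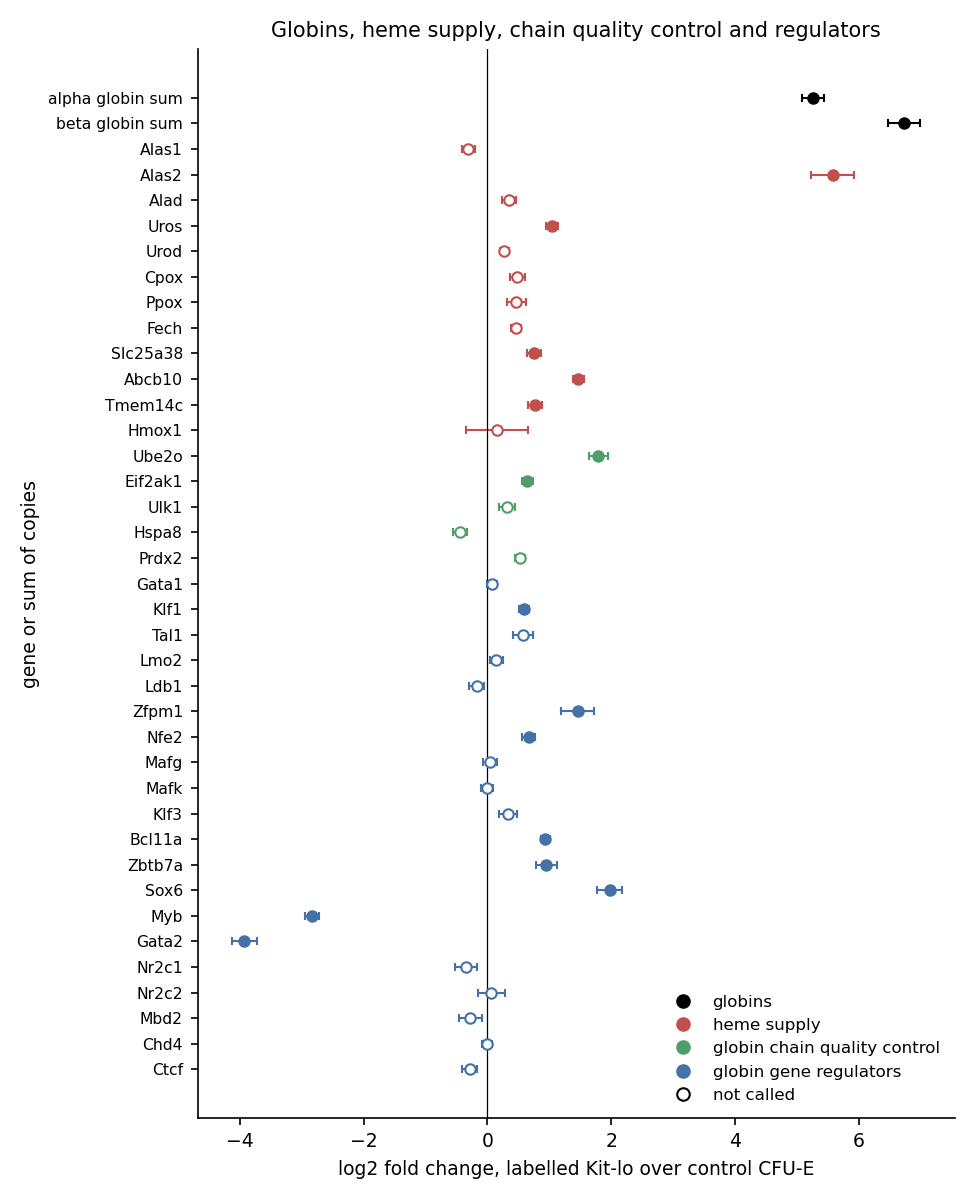
Log2 fold change of the Kit-lo-labelled libraries over control CFU-E, with its standard error, for the alpha and beta sums (black) and the genes of heme supply (red), globin chain quality control (green) and globin regulation (blue); open points were not called and 1 heme gene is not shown. The sums and Alas2 lie above 5, and the other genes between -4 and 2.

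Genes with the profile most like that of the globins were found from log2 CPM over the 6 libraries, each profile centred on its mean, as the smallest root mean square difference among 9936 genes. Nearest to alpha globin was *Alas2* (0.45), then *B4galnt4* (0.46), *Aldh3b2* (0.48), *Podxl* (0.48) and *Cdkn1a* (0.50). Nearest to beta globin was *Plek2* (0.42), then *Slc4a1* (0.57), *Apol8* (0.63), *B4galnt4* (0.65) and *Podxl* (0.65). *B4galnt4* had 0 counts in every control library and 5.77 CPM on average with low Kit. Its distance from either sum depends on the prior count of 2 added before taking logs. The floor was a log2 CPM of 1 on average over the libraries, and *B4galnt4*, *Cdkn1a*, *Plek2*, *Apol8*, *Aldh3b2* and *Slc4a1*, all at less than 2 CPM on average in control, passed it through the group in which they are high. *Slc4a1* encodes the red cell anion exchanger band 3, and *Cdkn1a* the cell cycle inhibitor p21. The alpha and beta sums were 0.72 apart, farther than each was from its 5 nearest genes. All points share the libraries and the group difference, which sets most of each profile.

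Markers of maturing erythroblasts moved with the globins. Of 15 listed, 14 were tested, of which 10 were called higher and 0 lower by edgeR and by DESeq2 (median 0.88, with 12 and 0 at an unadjusted p under 0.05), beside 12.1% and 9.84% of all rows. Their summed level was 2995, 2894 and 3028 CPM in control and 4818, 5219 and 5197 CPM in the Kit-lo-labelled libraries. The most abundant was *Rhd*, of the Rh complex, at 999 ± 49.0 and 1687 ± 223 CPM (SD, n = 3 each). Except for *Slc4a1*, with a log2 fold change of 7.31, no tested marker of that list changed by as much as the alpha sum.

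The 6 CFU-E markers were divided. *Kit* and *Car1*, a carbonic anhydrase of early erythroid cells, fell, *Epor*, the erythropoietin receptor, rose with *Klf1*, and *Tfrc* and *Gata1* were not called. The rises of *Epor* and *Klf1* were close to the fold of 1.5, and the number called higher was 0 under upper quartile scaling or without control replicate 3. It was 1 without control replicate 2 and without replicate 1 or replicate 3 of the Kit-lo-labelled libraries. The sum of the 6 markers, led by *Car1* in control, was 6753, 7294 and 6878 CPM in control and 3960, 3925 and 3773 CPM in the Kit-lo-labelled libraries. The 4 early progenitor markers with a row, led by *Gata2*, summed to 37.1, 34.9 and 38.1 CPM and to 4.33, 5.15 and 3.21 CPM. Of these, 2 were tested, with 0 called higher and 1 lower (*Gata2*), beside 12.1% and 9.84% of all rows. *Meis1* was not called, at 1.81 CPM on average in control and 1.41 CPM in the Kit-lo-labelled libraries (adjusted p = 0.67 by edgeR). The rest were too low to be tested, and the fall of the sum was mainly that of *Gata2*.

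Markers of cells outside the erythroid line were low in all 6 libraries. The 10 macrophage markers with a row summed to 23.9, 24.7 and 27.6 CPM in control and 17.6, 18.1 and 21.6 CPM in the Kit-lo-labelled libraries, with *Cd163* the most abundant, and 0 of 7 tested were called higher and 2 lower by edgeR and by DESeq2 (1 and 2 at an unadjusted p under 0.05). Of all rows 12.1% were called higher and 9.84% lower. The 2 macrophage markers called lower became 1 under the replicate block and without any 1 library except replicate 1 of the Kit-lo-labelled libraries, where 3 were called lower and 1 higher. Single genes went both ways at low levels, with *Lyz2*, of granulocytes and macrophages, at 1.31, 2.07 and 1.16 CPM in control and at 1.18, 5.05 and 5.70 CPM in the Kit-lo-labelled libraries (not called), and *Adgre1*, which encodes F4/80, at 0.106 ± 0.011 CPM (SD, n = 3) in control and 0 counts in the other group, too low to be tested. The 10 granulocyte markers summed to 38.4, 30.2 and 24.8 CPM and to 17.1, 16.7 and 24.6 CPM, with *Mpo* the most abundant in the controls, and 1 of 4 tested was called higher and 1 lower, counts that ran from 1 to 2 and from 0 to 2 with a library left out. *Mpo* was the gene called lower. The gene called higher was *Ngp*, of neutrophil granules, at 0.188, 0 and 0.330 CPM in control and 1.23, 2.15 and 2.17 CPM in the Kit-lo-labelled libraries (log2 fold change 3.31, SE 0.79), which passed the filter on low counts through the latter group. *S100a8*, *Camp* and *Ltf*, too low to be tested, were also higher there on average, at 0.869, 0.656 and 0.698 CPM beside 0.0730, 0.260 and 0.141 CPM. Other genes of that list went the other way. *Elane* was lower in the Kit-lo-labelled libraries without a call (log2 fold change -1.89, SE 0.78, adjusted p = 0.087 by edgeR). *Ctsg*, too low to be tested, was at 0.292 CPM on average there beside 0.733 CPM in control. The 6 megakaryocyte markers summed to 13, 22.6 and 13.9 CPM and to 23.7, 27.0 and 20.1 CPM, with *Vwf* the most abundant, and 2 of 4 tested were called higher and 0 lower. Those called were *Itga2b*, which encodes CD41, at 2.48, 3.04 and 2.37 CPM in control and 8.98, 12.4 and 3.94 CPM in the Kit-lo-labelled libraries (log2 fold change 1.62, SE 0.39), and *Gp9* (1.31, SE 0.38). The count fell to 1 without control replicate 1 or 3 and without replicate 1 or 2 of the Kit-lo-labelled libraries. *Pf4*, platelet factor 4, differed the other way without a call, at 0.656, 1.89 and 0.771 CPM in control and 0.481, 0.200 and 0 CPM in the Kit-lo-labelled libraries (log2 fold change -2.31, SE 0.90, adjusted p = 0.074 by edgeR). *Treml1* of that list, at 0.201 ± 0.129 CPM (SD, n = 3) in control, was at 0 counts in the Kit-lo-labelled libraries. *Cpa3* of the mast cell list, at 0.611 ± 0.148 CPM (SD, n = 3) in control, was also at 0 counts there, and the 4 genes of that list with a row summed to at most 4.90 CPM. The megakaryocyte sum and *Ngp*, *S100a8*, *Camp* and *Ltf* were on average higher with the globins, whereas *Mpo*, *Elane* and *Ctsg* were lower. The part of either set in the globin values was not tested.

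The m6A libraries asked whether globin mRNA of control CFU-E cells was enriched by the antibody. Alpha globin was at 56.3 and 57.7 CPM in input and at 49.0 and 54.4 CPM in IP. It was slightly lower in both IP libraries, without a call (log2 fold change -0.29, SE 0.23, adjusted p = 0.42 by edgeR). Beta globin was at 8.64 and 12.2 CPM in input and at 6.41 and 4.88 CPM in IP. Both IP libraries were below both inputs (log2 fold change -1.05, SE 0.31), and the sum was called lower in IP at an adjusted p of 0.046. Of 11445 rows tested, 7.9% were called higher in IP, 7.86% lower and 15.8% in either direction. Both IP libraries were below both inputs in 21.9% of rows and above them in 38.6%. Neither globin sum was called m6A-modified.

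The call for beta globin did not last. It was lost when any of the 4 libraries was left out, with log2 fold changes from -1.34 (without input replicate 1) to -0.73 (without input replicate 2), and under 2 other scalings. The difference lay mainly in *Hbb-bs*, at 4.66 and 8.14 CPM in input and 2.61 and 2.19 CPM in IP (log2 fold change -1.58, SE 0.38, adjusted p = 0.021). *Hbb-bs* was higher in input replicate 2 than in any other m6A library, and without that library its adjusted p was 0.20. *Hbb-bt* was at 3.97 and 4.02 CPM in input and 3.8 and 2.69 CPM in IP and was not called. *Hba-a1* had a log2 fold change of -0.35 (SE 0.24) and *Hba-a2* of -0.14 (SE 0.27), neither called.

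**Figure D4:**
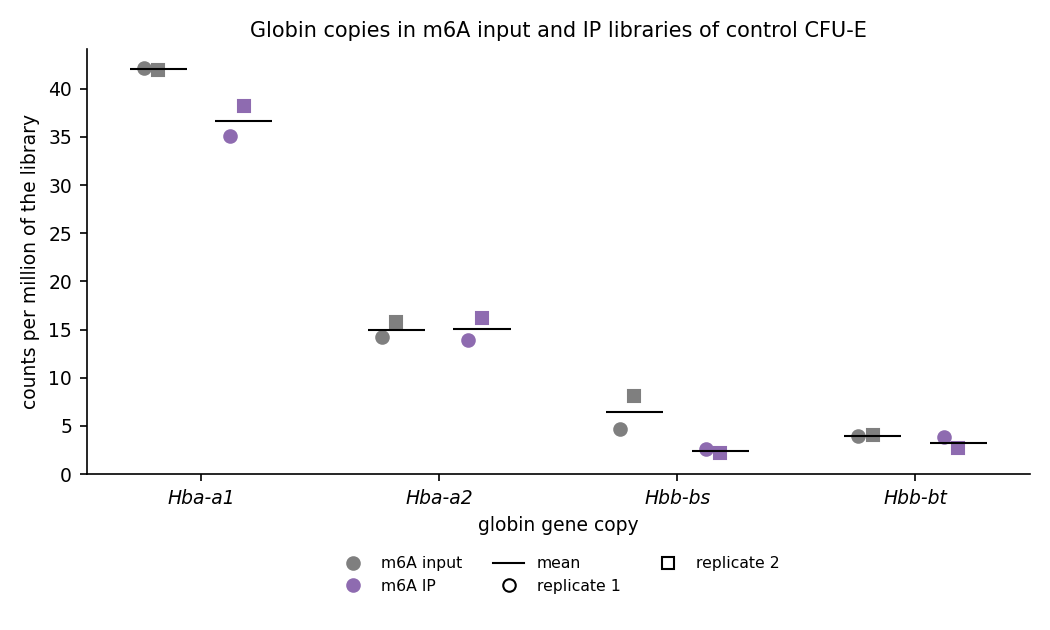
CPM of each globin copy in the 2 m6A input (grey) and 2 m6A IP (purple) libraries of control CFU-E; symbols give the replicate number and bars the mean. For Hbb-bs both IP points are below both input points and input replicate 2 is the highest at 8.14 CPM, while the Hba-a2 points overlap.

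The transcripts were searched for GGACT, a form of the sequence at which m6A is often placed. It was in 0 of the 4 annotated globin transcripts, whereas 53.6% of 7473 protein-coding transcripts of 500 to 750 bases and 78.7% of all held it. Other forms of that sequence were not searched, so this does not show that globin transcripts lack such sites. The printed coding window of *Hba-a1* holds another form, GGACA, where that of *Hba-a2* reads GGATA. The authors detected high m6A on *Hba* and *Hbb* in control erythroblasts by quantitative PCR after m6A immunoprecipitation, in another cell stage and by another method. Of the 20 globin regulators, 1 was called higher in IP and 6 lower, and of 11 heme genes tested 1 was higher and 2 lower, beside 7.9% and 7.86% of all m6A rows.

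The input libraries also give a second measure of globin in control CFU-E cells, by a protocol that reads 3′ ends. By counts, alpha exceeded beta by 6.52 and 4.75 times in input and by 12.1, 10.8 and 11.2 times in the control RNA-seq libraries. *Hba-a1* made 74.8% and 72.7% of alpha counts in input, above all 3 control RNA-seq libraries, and *Hbb-bs* made 54.0% and 66.9% of beta counts. The balance and the split of the alpha copies thus did not overlap between library types for cells of the same label, whereas the beta split did (59.8%, 81.7% and 76.2% in control RNA-seq). Protocol and sample cannot be told apart here, and the experiments were not tested against each other.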

How the data were processed

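RNA-seq libraries (3 control CFU-E, 3 *Mettl3*-deficient CFU-E Kit-lo) and m6A libraries of control CFU-E (2 IP, 2 input) were analysed, and the 6 ProE samples were not analysed here. Groups were taken from the labels, which map 16 samples, of which 10 have a column of values. Per the labels and the methods, the authors filtered reads with fastp 0.23.4, quantified transcripts with kallisto 0.48.0 on mm10, summarised them per gene by tximport and deposited estimated counts, which were whole numbers and not normalized. RNA-seq used Smart-seq2 on oligo-dT primed cDNA, and m6A libraries SLIM-seq with a molecular identifier. Its use in the counting, and the strand counted, are not given in the sources used here.

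Copies were summed and edgeR 4.0.16 in R 4.3.3 (TMM, filterByExpr, glmQLFit, glmQLFTest) was fitted to each whole table, with Benjamini-Hochberg adjustment over all tested rows. The SE is the absolute log2 fold change over the square root of F. RNA-seq calls needed a fold of 1.5 and an adjusted p under 0.05, and m6A calls an adjusted p under 0.05. Single copies came from fits with the copies apart (11979 and 11447 rows). CPM use library totals without TMM. Ratios were tested by two-sided exact permutation. The fits were first tested on simulated data. DESeq2 1.42.0, other scalings, filters, a replicate block and leaving out each library were the alternatives, and RefSeq transcript lengths were added after the data were seen.

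Members and lists were chosen with earlier results of these data known. Named are the globins, *Mettl3*, genes of the 4 lists on globins, regulators, chain quality control and heme, cluster neighbours, the defining and most abundant markers and the 5 nearest profiles. The pseudogene, the markers at 0, *Lyz2*, *Itga2b*, *Gp9*, *Pf4*, *Ngp*, *S100a8*, *Camp*, *Ltf*, *Elane*, *Ctsg* and *Meis1* were named after their values were seen. Coordinates, transcript lengths and transcripts are from GENCODE M21 and promoters from RefSeq, both of GRCm38. The labels also name GRCm39. Replicate numbers did not pair the RNA-seq libraries (correlations of deviations 0.035, -0.018 and -0.072). Correlations of log2 CPM across genes were 0.967 to 0.983 within RNA-seq groups. Of the library pairs, 0 held identical values. The listed gene that was not analysed here, and its ratio to alpha globin, are not reported, nor are the values of 2 other listed genes, which stay in the counts of their lists. Figures were drawn with matplotlib 3.10.9 in Python 3.11.15.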

Additional observations from a re-analysis of the deposited data

How the results depend on the processing

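In the RNA-seq libraries the alpha and beta sums and all 4 copies kept their direction and call under all alternatives run. The log2 fold change of the alpha sum ran from 5.07 to 5.41 and that of the beta sum from 6.48 to 6.94, both ends with a single library left out. Fitted apart, the copies gave 4.99 (*Hba-a1*), 5.52 (*Hba-a2*), 6.84 (*Hbb-bs*) and 6.42 (*Hbb-bt*). The alpha to beta difference ran from -1.51 to -1.30 in log2 over 11 alternatives, and paired by replicate number it was -1.43, with an exact sign permutation p of 0.25, the smallest that 3 pairs allow. The replicate block changed no call of the globins. Same-numbered RNA-seq libraries did not deviate together, and for the m6A libraries (0.21) the labels do not say whether a shared number marks IP and input of the same RNA, which 2 libraries a group cannot settle. The block gave 1776 calls higher and 1755 lower in IP, beside 904 and 900 without it. In the m6A libraries the beta sum, called lower in IP, lost its call with library size only (log2 fold change -0.87, adjusted p = 0.13), with upper quartile scaling (-0.92, adjusted p = 0.052) and without each library (-1.34 to -0.73), and kept it under DESeq2 (-1.09, adjusted p = 0.017). *Hbb-bs* lost its call with library size only (-1.40, adjusted p = 0.050) and, among the fits leaving out a library (-1.99 to -1.07), without input replicate 2. *Hba-a2*, not called, changed sign with library size only (0.0056) and, among the fits leaving out a library (-0.36 to 0.031), without IP replicate 1, and the other copies and the alpha sum kept their sign. Library size only moved the median of all m6A rows from 0.056 to 0.21 and upper quartile scaling to 0.19, with 60.6% and 65.9% of calls on the side of IP, beside 50.1%. With a library left out an IP or input group had 1 library, assumed to vary like the others, and calls ran from 175 to 1358 higher and 437 to 967 lower. Testing the RNA-seq libraries against a fold of 1.5 left 663 calls higher and 482 lower, beside 1451 and 1179. Among gene lists, the count of quality control genes called higher ran from 1 to 3 with a library left out, and that of alpha neighbours called lower from 0 to 1, being 0 also with library size only. The counts of CFU-E, macrophage, granulocyte, megakaryocyte and mast cell markers called also moved with a library left out. The causes were not tested. The alternatives for 1 listed gene and its ratio to alpha globin were not run. With 3 against 3 libraries no exact test can reach p = 0.05, beta globin rests on 93 to 107 counts per control library, and intervals cover counting error only.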
